A study of Mus musculus with 6 samples.

Results

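Acot1, Acot2 and Vnn1 are liver genes of acyl-CoA and coenzyme A turnover, and they were chosen by symbol: 3 rows of the 389 in a table of mouse liver genes. Each row carried a read count and an FPKM value (fragments corrected for the length of the transcript and the depth of the library) for 6 liver libraries. There were 3 libraries from wild-type mice (WT) and 3 from mice with a knockout of Usp28 in the whole body (KO). The Usp28 protein takes ubiquitin off its target proteins. Mice of both genotypes were 8 weeks old when they were put on a methionine-choline deficient diet, which brings on fatty, inflamed liver, and they stayed on it for 4 weeks, so the groups differed in genotype and shared the diet. The labels do not say whether the libraries of a group came from separate animals, so the spread that p-values measure here is that between samples and may be technical in part.

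Acyl-CoA thioesterases split acyl-CoA esters into a free fatty acid and coenzyme A. ACOT1 does this in the cytosol and ACOT2 in the mitochondrial matrix. VNN1 is a pantetheinase tethered to the outside of the cell membrane, and it cleaves pantetheine, a breakdown product of coenzyme A, into pantothenic acid (vitamin B5) and cysteamine. In liver the 3 genes are known as targets of PPARA, the nuclear receptor that raises fatty acid oxidation genes in fasting.

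Depth recovered from the counts and FPKM of the same genes lay between 20350000 and 24160000 reads per library. The 389 genes had been selected by the authors on the comparison of KO with WT: in the authors' deposited table no log2 fold change was smaller in size than 1.004, and the largest FDR was 0.0494. A difference between KO and WT is therefore a condition for having a row. Usp28 itself had no row among these genes, and its level was therefore no check on the genotype labels. Of 64 marker genes of 10 liver and blood cell types, 7 had a row, and none of them was among the 7 hepatocyte markers, so the tissue label was not checked either.

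Acot1 (ENSMUSG00000072949) and Acot2 (ENSMUSG00000021226) are neighbours on the plus strand of chromosome 12 (GRCm38), in a cluster of 6 Acot genes. Acot2 lies at 83987861 to 83993873 and Acot1 at 84009490 to 84018371, 15616 bases further on. The other 4 genes of the cluster, Acot3, Acot4, Acot5 and Acot6, had no row. Vnn1 (ENSMUSG00000037440) lies on the plus strand of chromosome 10 at 23894688 to 23905343. No annotated gene overlaps any of the 3.

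Acot1 and Acot2 are copies that are closely alike in their coding sequence, which bears on how reads are assigned to them. Their full-length coding transcripts have 3 exons each, 2272 bases in Acot1 and 2196 in Acot2. Over 1239 aligned coding bases, 1183 (95.5%) are identical, while the 3' UTRs are 58.2% identical over 746 aligned bases. Coding sequence is 102 bases longer in Acot2 than in Acot1. The longest identical run spans 273 bases in exon 3 of both genes. The end of that run is printed below with the bases that follow it, because it shows how few bases separate the copies there. Capitals mark the bases that differ, 5 of 120, and the first 60 bases are the end of the identical run. The Acot1 stretch is chr12:84017219-84017338 and the Acot2 stretch chr12:83992941-83993060, both in coding exon 3 on the plus strand of GRCm38.
Acot1 coding stretch: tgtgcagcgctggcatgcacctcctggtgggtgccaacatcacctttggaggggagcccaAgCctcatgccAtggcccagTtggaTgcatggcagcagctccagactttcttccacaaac
Acot2 coding stretch: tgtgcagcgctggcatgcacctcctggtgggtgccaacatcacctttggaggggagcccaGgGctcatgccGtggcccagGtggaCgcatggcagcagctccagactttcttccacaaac

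The read length is not given in the sources used here, so the share of ambiguous sequence was counted for several window lengths. Of all 75-base windows of the Acot1 transcript, 19.7% occur unchanged in Acot2, and of all 150-base windows 9.84%. For Acot2 the shares found in Acot1 are 20.5% and 10.2%. Counting every other annotated gene, 26.4% of the 75-base windows of Acot1 recur elsewhere, all of them in Acot2 to Acot6. No window of Vnn1 of 75 to 150 bases recurs in another gene. The counts of Acot1 and Acot2 are thus uncertain to the extent that reads from these stretches could be split between the copies. Those of Vnn1 are not touched by this.

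The promoters of the thioesterase pair are far less alike than their coding sequence. They are shown because the genes lie side by side and were both lower in KO. RefSeq (GRCm38.p6) promoter rows matched 2 of the 3 genes, Acot1 and Acot2. The stretches run up to the annotated transcript start, chr12:84009252-84009489 for Acot1 and chr12:83987611-83987860 for Acot2, both on the plus strand. They are 53.2% identical over 222 aligned bases, with 44 gap positions. The identity that unrelated stretches reach in such an alignment was not tested, so this value does not show shared sequence. Capitals mark a CCAAT box (CCAAT, searched on both strands), which begins 79 bases before the RefSeq start in Acot1 and, on the minus strand, 244 bases before it in Acot2. In Acot2 a second run of capitals, which begins 58 bases before the start, marks a match with 3 mismatches to the DR1 motif, which is AGGTCA repeated on the same strand after 1 base of any kind and is the direct repeat that PPAR-RXR dimers are known to bind.
Acot1 promoter stretch: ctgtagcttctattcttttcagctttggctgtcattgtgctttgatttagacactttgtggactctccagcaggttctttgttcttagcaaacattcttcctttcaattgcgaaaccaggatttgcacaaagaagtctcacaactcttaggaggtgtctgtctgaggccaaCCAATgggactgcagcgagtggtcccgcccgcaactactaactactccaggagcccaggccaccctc
Acot2 promoter stretch: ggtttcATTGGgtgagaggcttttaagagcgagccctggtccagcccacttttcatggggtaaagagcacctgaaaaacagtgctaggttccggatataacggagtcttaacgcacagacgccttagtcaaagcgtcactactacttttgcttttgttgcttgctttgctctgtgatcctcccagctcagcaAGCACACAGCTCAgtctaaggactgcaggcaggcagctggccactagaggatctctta
A DR1 match with up to 3 mismatches on either strand occurs in 21.3% of all 32851 promoters over the same 250 bases, and a CCAAT box in 33.8%. Neither promoter holds a DR1 match with up to 2 mismatches, which 3.24% of promoters do, nor a TATAAA, which 12.4% do. The windows are short, so these letters describe the 250 bases and nothing further away.

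KO livers were compared with WT livers to ask how transcript levels differ without Usp28 on this diet. All 3 genes were lower in KO, and in none did the KO values overlap the WT values. Acot1 was 6.64-fold lower, Vnn1 4.50-fold and Acot2 3.54-fold. In the table as a whole 55.0% of the genes were lower in KO without overlap (93.3% without overlap in either direction). The 3 genes were selected on this comparison like the rest, so their direction and lack of overlap describe the table. The selection did not compare libraries within a genotype, but its limit on FDR can favour genes with little spread for their change. The spread within a genotype is therefore not free of the selection either. Within WT the 3 genes parted: in WT replicate 3, Acot1 and Vnn1 were much closer to KO, and Acot2 was not.

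Acot2, the mitochondrial thioesterase, was even across the WT libraries. WT replicates 1, 2 and 3 held 24.2, 19.9 and 23.1 FPKM, against 4.77, 7.94 and 6.26 FPKM in KO replicates 1, 2 and 3. The read counts behind these were 1084, 1057 and 1030 in WT and 219, 386 and 300 in KO. The lowest WT library was 2.51 times the highest KO library. The WT mean was 22.4 ± 2.23 FPKM and the KO mean 6.32 ± 1.59 (SD, n = 3 each). The log2 fold change was -1.82 ± 0.31 (SE, edgeR quasi-likelihood adjusted p = 0.00290 over the 389 genes).

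Acot1, the cytosolic thioesterase, had a split WT group. It stood at 71.0 and 73.5 FPKM in WT replicates 1 and 2, and at 14.8 FPKM in WT replicate 3. KO replicates 1, 2 and 3 stood at 8.74, 10.4 and 5.52 FPKM. WT replicate 3 was therefore 4.89-fold below the mean of the other WT libraries and 1.42 times the highest KO library. The counts were 3257, 3912 and 683 reads in WT and 363, 522 and 274 in KO, so the low value of WT replicate 3 was not one of few reads. The WT mean was 53.1 ± 33.2 FPKM and the KO mean 8.21 ± 2.47 (SD, n = 3 each). By edgeR the log2 fold change came to -2.73 ± 0.56 (SE, adjusted p = 0.00462), and to -3.17 when WT replicate 3 was left out.

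Vnn1, the pantetheinase gene, had the same split in a milder form. WT replicates 1, 2 and 3 held 77.7, 74.2 and 28.6 FPKM, against 11.4, 13.7 and 15.0 FPKM in KO replicates 1, 2 and 3. WT replicate 3 was 2.66-fold below the mean of the other WT libraries and 1.90 times the highest KO library. The counts were 3824, 4332 and 1406 reads in WT and 572, 732 and 793 in KO. The WT mean was 60.2 ± 27.4 FPKM and the KO mean 13.4 ± 1.87 (SD, n = 3 each). By edgeR the log2 fold change came to -2.17 ± 0.41 (SE, adjusted p = 0.00346), and to -2.51 when WT replicate 3 was left out. In bulk liver, fewer cells of a type and less RNA per cell cannot be told apart for any of the 3 genes.

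**Figure D1:**
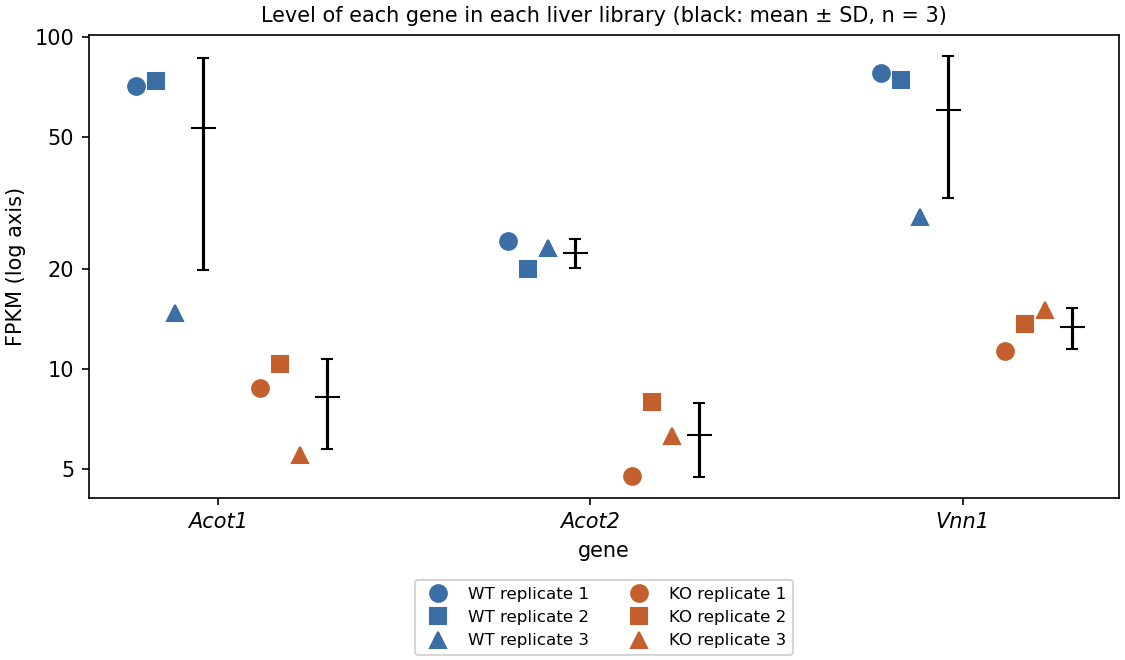
FPKM of Acot1, Acot2 and Vnn1 in each library on a log axis, WT in blue and KO in orange, a symbol for each replicate number, with the mean ± SD (n = 3) in black. WT replicate 3 (blue triangle) sits at 14.8 FPKM in Acot1 and 28.6 in Vnn1, well below the other WT libraries, and at 23.1 in Acot2, level with them.

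By the edgeR test all 3 genes passed an adjusted p of 0.05, as did 99.7% of the table (59.9% lower in KO), because the rows had been selected on it. The authors' p-values and FDR imply a test of about 16198 genes. Adjusted over that many, edgeR's p was 0.121 for Acot2, 0.144 for Vnn1 and 0.192 for Acot1, and none passed, against 1.29% of the table. With DESeq2 and that number of genes the adjusted p-values were 3.18e-05 for Acot2, 8.82e-05 for Vnn1 and 9.39e-05 for Acot1, and all 3 passed, as did 39.3% of the table (26.5% lower in KO). In both adjustments the genes without a row, which have no counts here, were ranked behind all 389. A fit of every gene could give other values. The firmness of a call for any of the 3 genes thus depended on the tool. Scaling mattered as well: TMM factors, computed within this selected table, moved the median log2 fold change of all its genes from -1.10 to -0.53 and left 94 genes lower and 156 higher, against 233 and 155. Acot1, Vnn1 and Acot2 then stood at -2.21, -1.62 and -1.25, still below that median. With the summed counts of the table as library size the median was -0.13 and Acot2, at -0.87, did not pass (edgeR adjusted p = 0.0881).

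The order of the 3 genes by size of change was the reverse of their order by p. Acot1 had the largest fold change, the 23rd most negative of the 389, with Vnn1 at rank 42 and Acot2 at rank 72. In the authors' deposited table the FDR was smallest for Acot2 (5.87e-12, rank 16 by p), then Vnn1 (2.57e-06, rank 72) and Acot1 (0.00858, rank 272). The spread within WT ran the same way. The SD of log2 FPKM over the WT libraries was 0.15 in Acot2, 0.81 in Vnn1 and 1.32 in Acot1. Over the KO libraries it was 0.37, 0.21 and 0.47, so KO livers did not show the same gap between the genes.

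The order of the levels also changed between libraries. In WT replicates 1 and 2, Vnn1 and Acot1 were close (Acot1 at 0.914 and 0.990 of Vnn1 in FPKM) and Acot2 was the lowest. In WT replicate 3 the order was Vnn1, Acot2, Acot1. Vnn1 was the highest of the 3 in all 6 libraries. In KO its lowest library, at 11.4 FPKM, was still above the highest Acot1 library, at 10.4. Acot1 and Acot2 overlapped in KO, with Acot1 above Acot2 in replicates 1 and 2 and below it in replicate 3. In WT the mean levels of Vnn1 and Acot1 differed by less than the SD of either.

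Ratios of 2 genes within a library do not depend on its depth, and they were used to test whether the genes fell to different extents. The count ratio of Acot1 to Acot2 was 3.005, 3.70 and 0.663 in WT replicates 1, 2 and 3, against 1.66, 1.35 and 0.913 in KO replicates 1, 2 and 3. The groups overlapped, since WT replicate 3 held the lowest ratio of all 6. The mean log2 ratio was 0.96 ± 1.35 over the WT libraries and 0.34 ± 0.44 over the KO libraries (SD, n = 3 each). The difference was -0.62 (exact permutation test, two-sided, p = 0.50, 0.75 adjusted over the 3 pairs of genes). With 3 libraries against 3 the smallest possible p is 0.10. Without WT replicate 3 the difference was -1.39, and both remaining WT libraries lay above all 3 KO libraries.

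The ratio of Acot1 to Vnn1 was 0.852, 0.903 and 0.486 in the counts of WT replicates 1, 2 and 3, against 0.635, 0.713 and 0.346 in those of KO replicates 1, 2 and 3. These groups overlapped too, with a log2 difference of -0.42 (exact permutation test, two-sided, p = 0.50, 0.75 adjusted). Acot2 over Vnn1 was 0.283, 0.244 and 0.733 in WT and 0.383, 0.527 and 0.378 in KO. Here WT replicate 3 was the highest of all 6 libraries, and the log2 difference was 0.20 (exact permutation test, two-sided, p = 0.80, 0.80 adjusted). No pair was shown to differ in its response, and no pair was shown to respond alike.

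**Figure D2:**
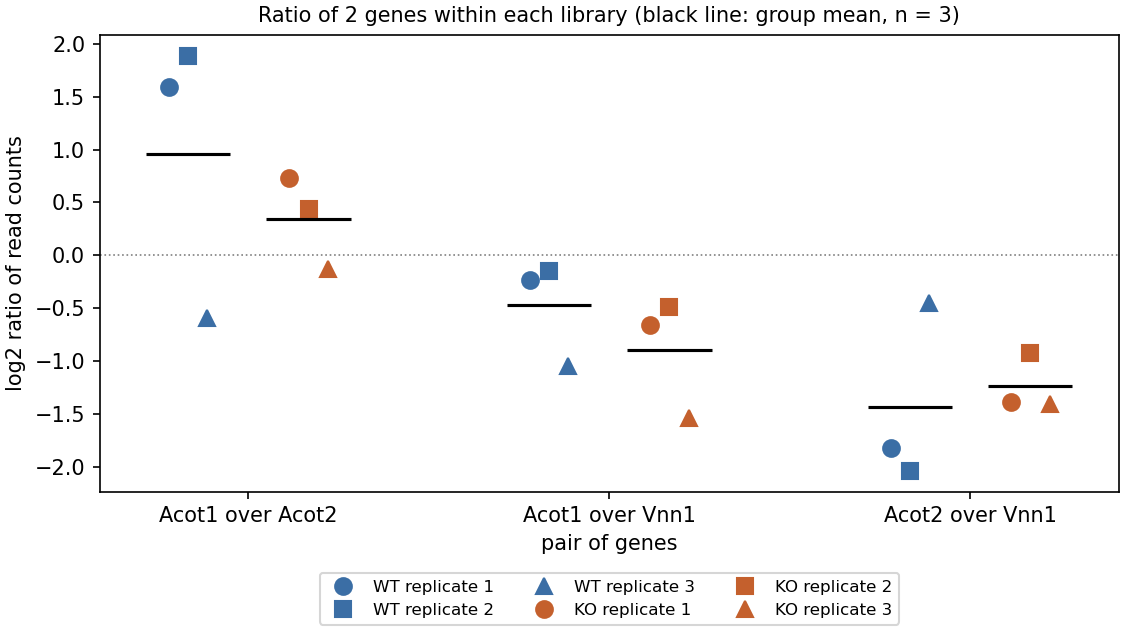
Log2 ratio of read counts for each pair of genes within each library, WT in blue and KO in orange, with the group mean as a black line (n = 3). In Acot1 over Acot2 the WT libraries run from -0.59 to 1.89 and enclose the KO libraries, which run from -0.13 to 0.73.

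The FPKM of Acot1 carried an added uncertainty in a single library. Reads per FPKM, divided by the library's depth, give the transcript length behind an FPKM value. For Vnn1 this was 2416 bases in all 6 libraries, and for Acot2 between 2196 and 2201. These equal or nearly equal the annotated lengths of their full-length transcripts, 2416 and 2196 bases. For Acot1, which has 4 annotated transcripts of 622 to 2613 bases, it was 2204 to 2275 bases in 5 libraries and 1991 in KO replicate 1. Reads per FPKM of Acot1 in that library were 11.6% below what its depth and WT replicate 1 give. The ratio of Acot1 to Acot2 in KO replicate 1 was accordingly 1.66 in counts and 1.83 in FPKM.

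The place of WT replicate 3 was set out on a scale on which 0% is the KO mean and 100% the mean of WT replicates 1 and 2, in log2(FPKM + 0.1). Acot2 stood at 104%, Vnn1 at 43.9% and Acot1 at 28.0%. Of a list of 57 genes of PPARA and its targets in fatty acid oxidation, 22 had a row, the 3 genes included. On the same scale Acot2 was the highest of the 22, followed by Ppara itself at 74.8% and Cpt1a at 58.6%. Vnn1 held rank 5 and Acot1 rank 11. The other 19 ran from 3.25% to 74.8% with a median of 24.2%. Among all 233 genes lower in KO the median was 82.0%, and there Acot2 held rank 97 from the top, Vnn1 177 and Acot1 201. The place of Acot2 thus set it apart within the PPARA list and not within the table.

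**Figure D3:**
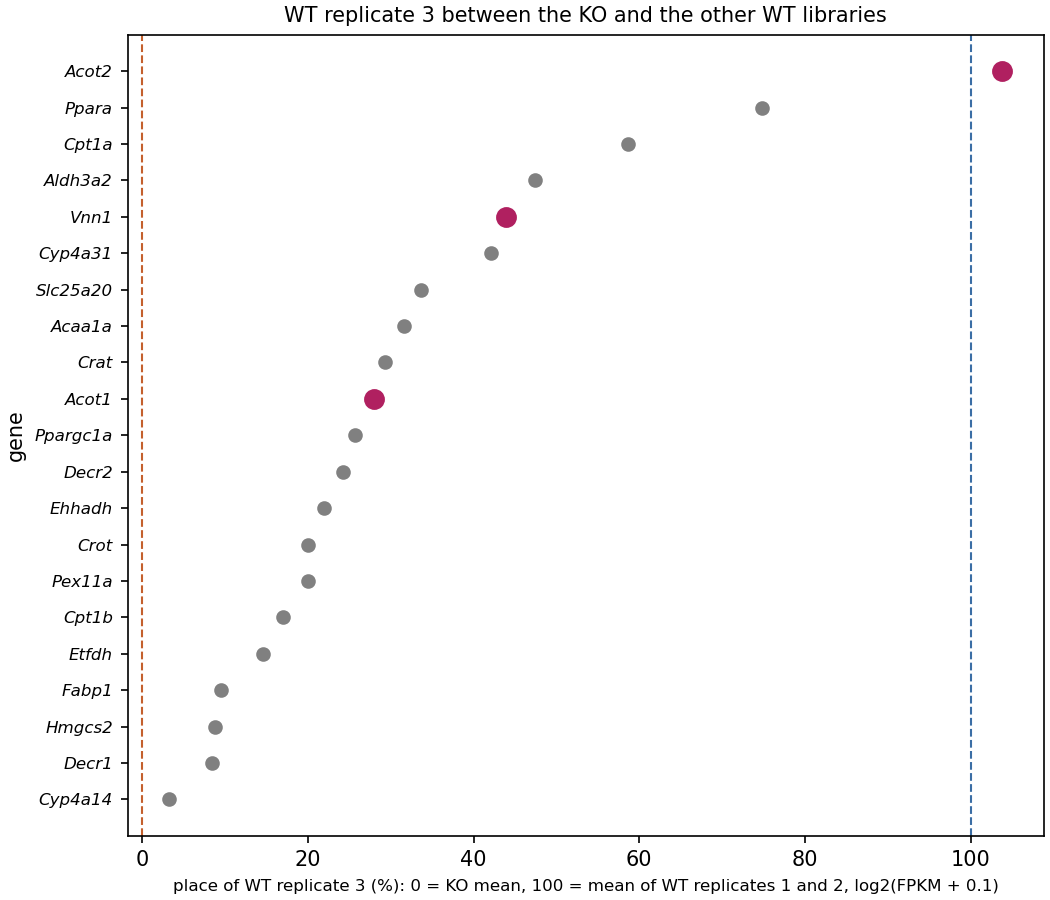
Place of WT replicate 3 for 21 genes of the PPARA list with a row, on a scale from the KO mean (0%) to the mean of WT replicates 1 and 2 (100%), with Acot1, Acot2 and Vnn1 as large points. Acot2 sits at 104% and the other 20 genes drawn at 74.8% or lower.

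WT replicate 3 also held the highest levels of markers of other cells. Of 10 markers of monocytes and recruited macrophages, 6 had a row (Itgam, Itgax, Cd14, Gpnmb, Mmp12 and Lgals3), none at 0 in any library. Their summed level was 67.1, 30.8 and 168 FPKM in WT replicates 1, 2 and 3, against 20.7 to 28.9 in KO. In WT replicate 3 the largest parts of the sum were Lgals3 (76.1 FPKM) and Mmp12 (53.4). Gpnmb was level in WT replicates 1 and 3, at 11.3 and 11.5 FPKM. Lcn2, the 1 gene of the 7 on the neutrophil list with a row, was at 28.8, 33.9 and 120 FPKM in WT and 8.02 to 12.4 in KO. A single gene of that list does not show how many neutrophils a library held. Among the WT libraries, Acot1 and Vnn1 were lowest where these markers were highest, and Acot2 was not. Between WT replicates 1 and 2 the macrophage sum fell, with Acot1 at 71.0 and 73.5 FPKM and Vnn1 at 77.7 and 74.2. In KO that sum and Lcn2 were below every WT library, and so were the 3 genes. The part of these cells in the levels of the 3 genes was not tested.

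Some other genes of the same chemistry had a row. Over all genes, the table held 389 rows of the about 16198 genes that the authors' test implies. Of 20 thioesterase and acyl-CoA transferase genes, Acot1 and Acot2 were the 2 with a row. Of 20 genes of coenzyme A synthesis, transport and breakdown, 2 had a row, Vnn1 and Slc25a42, and both fell. Slc25a42, which imports coenzyme A into mitochondria, stood at 24.7, 25.0 and 12.1 FPKM in WT and 8.49, 11.6 and 8.74 in KO, and edgeR gave a log2 fold change of -1.10 ± 0.35 (SE, adjusted p = 0.0152). Its WT replicate 3 lay next to KO replicate 2, at 1.04 times that library.

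Of 28 acyl-CoA synthetase and acyl-CoA binding genes, Slc27a1 had a row. It encodes a fatty acid transport protein with acyl-CoA synthetase activity, and so makes the substrate that thioesterases split. It stood at 6.46, 8.50 and 2.71 FPKM in WT and 1.76, 1.73 and 2.20 in KO (log2 fold change -1.56 ± 0.44, SE, edgeR adjusted p = 0.0108). Like Acot1 and Vnn1 it was lowest in replicate 3 among the WT libraries.

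On the side of cysteamine and glutathione, the thiols downstream of pantetheine cleavage and cysteine, 3 of 20 genes had a row, and 2 rose while 1 fell. Chac1 and Chac2, which encode enzymes that break down glutathione, were higher in KO. Chac2 stood at 9.97, 5.63 and 7.74 FPKM in WT and 24.2, 14.4 and 14.2 in KO (log2 fold change 1.17 ± 0.35, SE, edgeR adjusted p = 0.0121). For Chac1 edgeR gave a log2 fold change of 3.61 ± 0.75 (SE, adjusted p = 0.00462), with KO libraries from 2.64 to 18.2 FPKM and WT libraries from 0.510 to 1.92. Oplah, which encodes 5-oxoprolinase, the enzyme that returns oxoproline to glutamate, fell, from 77.7, 83.1 and 32.8 FPKM in WT to 21.7, 24.4 and 22.4 in KO. For Oplah edgeR gave a log2 fold change of -1.49 ± 0.38 (SE, adjusted p = 0.00823). With rows selected on this comparison, these counts describe the table and are not the share of each pathway that changed.

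All 22 PPARA genes with a row were lower in KO and passed, in a table selected on this comparison in which 99.7% of all rows passed and 59.9% passed as lower. Without Acot1, Acot2 and Vnn1 the median log2 fold change of the list was -1.33 over 19 genes, beside -1.10 over all 389 and -1.43 over the 233 lower ones. Acot1, Vnn1 and Acot2, at -2.73, -2.17 and -1.82, were each further from 0 than that median. Ppara, the receptor gene, stood at 24.9, 20.6 and 18.4 FPKM in WT and 8.79, 11.2 and 9.88 in KO (log2 fold change -1.07 ± 0.29, SE, edgeR adjusted p = 0.00931), so it fell less than any of the 3 genes. Large log2 fold changes among the other genes of the list included those of Ehhadh (-2.90), Cpt1b (-2.53), Cyp4a14 (-1.91), Crat (-1.91) and Cpt1a (-1.73). They encode enzymes of peroxisomal oxidation (Ehhadh), carnitine transfer (Cpt1a, Cpt1b, Crat) and omega-hydroxylation (Cyp4a14).

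**Figure D4:**
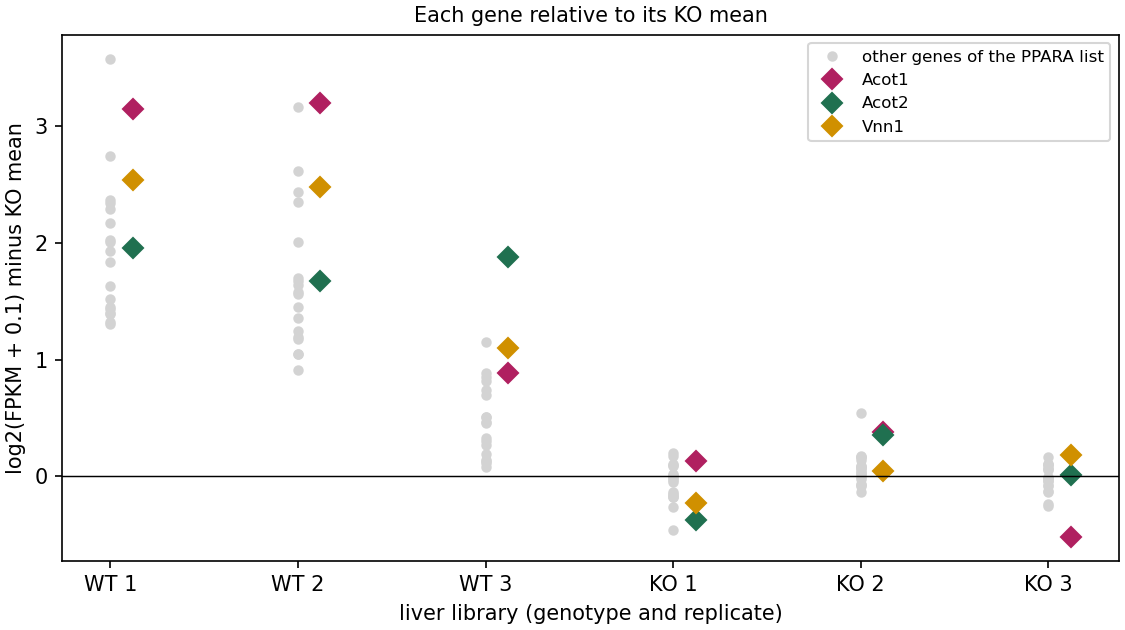
Log2(FPKM + 0.1) of each gene minus its KO mean in each library, with Acot1, Acot2 and Vnn1 as diamonds and 18 other genes of the PPARA list as grey points. In WT 3, Acot2 stands at 1.88 and above every grey point, while Acot1 (0.89) and Vnn1 (1.10) lie near their upper end.

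The genes of the table with the pattern most like each of the 3 were found by the root mean square (RMS) difference of centred log2(FPKM + 0.1) over the 6 libraries. This is a description over few points in a table in which every gene differs by genotype. Acot1 was nearest to Ehhadh (RMS difference 0.26, Pearson's r = 0.99), then Cpt1b (0.28), Rad51b (0.35), a gene of DNA repair, and Gpcpd1 (0.37), which encodes an enzyme of glycerophosphocholine breakdown. Ehhadh stood at 1209, 907 and 169 FPKM in WT and 117, 104 and 86.1 in KO, and shared with Acot1 the steep step down in WT replicate 3.

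Vnn1 was nearest to Tbc1d8 (RMS difference 0.10), a gene of the family that regulates Rab proteins. Next came Slc22a5 (0.11), the carnitine transporter, then Rab30 (0.16), which encodes a Rab protein. Slc22a5 stood at 35.9, 33.7 and 14.0 FPKM in WT and 4.48, 6 and 5.91 in KO.

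Acot2 was nearest to Plin2 (RMS difference 0.15, r = 0.99), the gene of perilipin-2, which coats lipid droplets. Next came Casz1 (0.17), a zinc finger gene at under 1 FPKM, then Epha2 (0.20), an ephrin receptor gene, and Tor3a (0.23), a torsin gene. Plin2 stood at 1052, 764 and 1021 FPKM in WT and 204, 315 and 335 in KO, and, like Acot2, its WT replicate 3 was level with the other WT libraries. The neighbouring gene Acot1 was rank 221 in likeness to Acot2 (RMS difference 0.89, r = 0.80), and Vnn1 rank 110 (0.53, r = 0.88). None of the 4 genes nearest to Acot2 is on the PPARA list, while 2 of the 4 nearest to Acot1 (Ehhadh and Cpt1b) are. That list was limited to fatty acid oxidation, so a gene absent from it, such as Plin2, may still be a target of PPARA.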

How the data were processed

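Total RNA of mouse liver was extracted with Trizol and made into 6 NEBNext Ultra libraries, per the labels' protocols. The submitters' processing notes name HISAT2, RSEM, StringTie 1.3.1 and fastp 0.18.0. What each tool did is not given in the sources used here, nor is the genome build, the use of strand or the authors' test. For 389 selected genes, read counts and FPKM per library were deposited by the authors, per the file headers. Beside them the authors deposited mean FPKM, a log2 fold change, a p-value and an FDR per gene.

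Depth was recovered in each library from 38 to 51 genes, as the median of the count divided by FPKM and length, using genes with 1 annotated transcript (GENCODE M21, GRCm38), at least 50 counts and 1 FPKM. Ratios of depth between libraries were checked over 264 genes. Counts were tested with edgeR 4.0.16 (R 4.3.3), quasi-likelihood, using that depth for library size with neither normalization factors nor a filter, Benjamini-Hochberg adjusted over the 389 genes. SE is the absolute log2 fold change over the root of the F statistic. DESeq2 1.42.0 and limma 3.58.1 were alternatives, and the fits were tested on simulated data. Other scalings, filters, pseudocounts, a replicate block and leaving out each library were also tried. The genes named are the 3 genes, every row of the thioesterase, coenzyme A, acyl-CoA synthetase and cysteamine lists, Ppara, the 6 PPARA list genes with the largest change, and the 4 most alike genes per member. A gene under this rule is not reported here. Members and lists were chosen with earlier results of these data known.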

Additional observations from a re-analysis of the deposited data

How the results depend on the processing

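The 3 genes were lower in KO under every alternative run. The log2 fold change ran from -3.17 to -1.59 for Acot1, from -2.40 to -0.87 for Acot2 (with the counts of Acot1 and Acot2 summed as 1 gene at -2.40) and from -2.51 to -1.08 for Vnn1. With summed counts of the table as library size, Acot2 (-0.87, edgeR adjusted p = 0.0881) did not pass. Adjusted over the genes the authors tested, Acot1 (-2.73), Acot2 (-1.82) and Vnn1 (-2.17) did not pass by edgeR. More genes were adjusted over there, with those lacking a row ranked last. Leaving out a library gave -3.17 to -2.44 for Acot1, -2.02 to -1.66 for Acot2 and -2.51 to -1.94 for Vnn1. In every such fit the 3 genes passed (largest edgeR adjusted p = 0.0238), as did 278 to 372 of the 389 genes of the table. The number of genes called, 388 (155 higher, 233 lower), was 250 (156 and 94) with TMM factors, 236 (156 and 80) with relative log expression factors, 181 (154 and 27) with summed counts, 239 (156 and 83) with DESeq2's own factors, 5 (all lower) over the genes the authors tested, and 153 with DESeq2 over the same, an alternative chosen after seeing the data. These scalings moved the median gene from -1.10 to between -0.53 and -0.13. With the replicate block 382 genes passed, and the log2 fold changes were -2.48, -1.85 and -2.06 for Acot1, Acot2 and Vnn1. No pairing by replicate number was seen: deviations of same-numbered libraries correlated at 0.05, 0.08 and -0.03. With 3 libraries per group and selected genes, this cannot exclude pairing. The ratio of Acot2 to Vnn1 changed direction without WT replicate 2 (-0.10), in a range of -0.10 to 0.69 when a library was left out. The ratios of Acot1 to Acot2 and to Vnn1 ranged from -1.39 to -0.15 and from -0.70 to -0.10.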
